A study of Mus musculus with 6 samples.

Results

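Ribosome biogenesis and nucleolar genes were examined in mouse bone marrow-derived macrophages (BMDMs) treated with LPS for 1 h. The set holds 52 protein-coding genes, chosen by symbol through GENCODE M21, and all 52 were found among the 55335 genes of the count table. All of them also passed the filter on low counts, which left 15687 genes for testing, and the lowest count of any member in any library was 39. The BMDMs were grown from the marrow of C57BL/6 mice, males of 7 to 10 weeks by the general methods of the study, in medium with L929-conditioned supplement. The control group received PBS and the LPS group received LPS, a component of the outer membrane of Gram-negative bacteria, and both groups were collected at 1 h with 3 libraries each. The dose given to the cells and the separate origin of the replicates are not stated in the labels, which give only batch numbers, so p-values measure the spread between these libraries. The library names of both groups begin with WT (wild type), and no altered allele is given for either group.

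Ribosomes are assembled in the nucleolus. RNA polymerase I (Pol I) makes a long precursor rRNA, small nucleolar ribonucleoproteins (snoRNPs) guide its chemical modification, and assembly factors fold and cut it into the RNA of the small and the large subunit. Ribosome biogenesis genes are best known for rising together in growing cells, where MYC is among their regulators.

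Library totals ranged from 37787611 to 41516330 counts. Tnf, which LPS induces in macrophages, was counted 1007, 935 and 872 times with PBS and 78981, 75054 and 76710 times with LPS. The 8 macrophage markers summed to 29946 to 31229 CPM in control and 35887 to 36245 in LPS libraries. CPM are read counts relative to library size, here scaled further as given below. The 4 T cell markers summed to at most 0.558 CPM, and both erythroid markers were at or under 3 counts everywhere. The dendritic cell markers Flt3, Xcr1 and Zbtb46 summed to 1.195 to 1.45 CPM in control and 4.93 to 6.17 in LPS libraries, and the part of this shift in the results was not tested. Neutrophil markers summed to 33.2 to 35.1 CPM in control and 43.4 to 45.3 in LPS libraries, and their part was likewise not tested. Lower sums also shifted without overlap, from 2.28 to 3.13 up to 5.14 to 6.47 CPM for endothelial, 0.714 to 0.908 up to 1.38 to 1.65 for mast cell, 0.598 to 0.910 up to 1.01 to 1.25 for B cell and 11.3 to 12.2 up to 13.1 to 14.3 for fibroblast markers, while NK cell markers summed to 0.353 to 0.775. Levels are given as raw counts or as CPM scaled by TMM factors, which set libraries to a common level under the assumption that most genes do not change. These factors were 1.15 in every control library and 0.864 to 0.872 in the LPS libraries, so that equal raw counts correspond to a higher scaled CPM after LPS. The marker sums are on this scale, so the size of their shifts, and for small shifts the direction, depends on these factors. In bulk RNA, fewer cells with a transcript and less of it per cell cannot be told apart.

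The members did not move as 1 group after 1 h of LPS. In edgeR's quasi-likelihood test with adjustment over all tested genes, 18 of 52 rose and 13 fell at an adjusted p under 0.05, while 21 did not pass. The share of all tested genes that rose was 32.9% and the share that fell was 34.9%, so the member counts lay near the background for rises (34.6%) and, with this scaling, below it for falls (25%). Only Nol10 and Rrs1 rose more than 2-fold, against 10.5% of all tested genes, and no member fell more than 2-fold, against 10.4%. The median log2 fold change of the members was 0.040 and that of all tested genes was -0.013. Changes were small for most members, with a median absolute log2 fold change of 0.18 against 0.37 over all tested genes, and 43 of 52 members (82.7%) stayed within 1.5-fold against 64.4% of all tested genes. Of the 31 members that passed the test, 22 differed by less than 1.5-fold and 13 by less than 1.2-fold.

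These directions depended on how the libraries were scaled. With library size alone in place of TMM factors, the median of all tested genes shifted by -0.40 on the log2 scale, 6 members rose (11.5%, against 15.0% of all tested genes) and 39 fell (75%, against 65.9%), and the share of called members that rose went from 58.1% to 13.3%. With upper quartile scaling the shift was -0.14, 12 members rose (23.1%, against 23.6% of all tested genes) and 26 fell (50%, against 46.3%), and the share was 31.6%. The share of members that fell thus lay above the background with both of these scalings and below it with TMM. The median of the members lay 0.053 above that of all tested genes with TMM or upper quartile scaling and 0.052 above it with library size alone. This near equality follows by construction, since a change of scaling moves all genes alike.

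**Figure D1:**
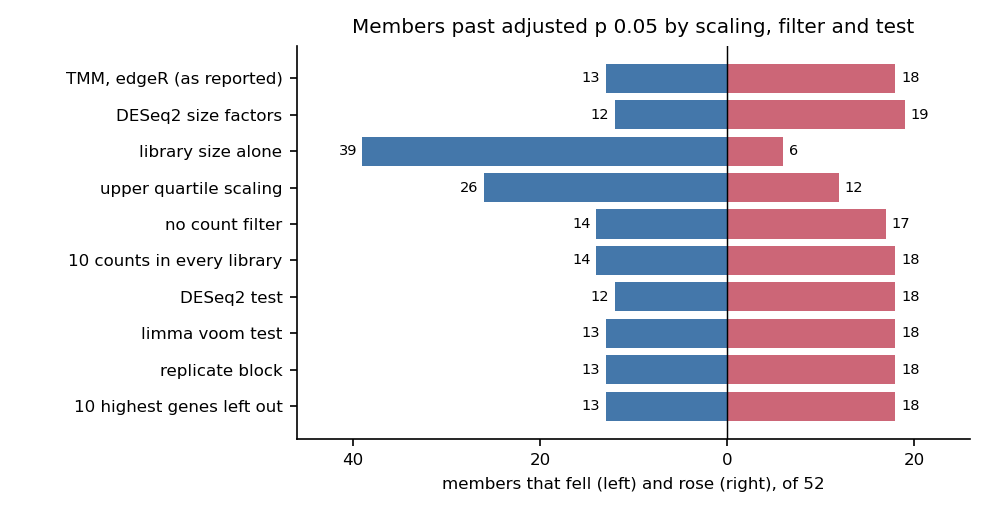
Horizontal bars count the members that fell (blue, left) or rose (red, right) at an adjusted p under 0.05, of 52, under each scaling, filter and test. The counts stay at 17 to 19 rises and 12 to 14 falls except with library size alone (6 and 39) and upper quartile scaling (12 and 26).

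The summed level of the members fell as a raw share and was higher as scaled CPM. Summed over the members, the control libraries held 74662, 69791 and 70818 counts and the LPS libraries 56505, 56253 and 57489. As a share of the library this was 0.177% to 0.180% in control and 0.147% to 0.149% in LPS, whereas the summed scaled CPM was 1535 to 1568 in control and 1684 to 1723 in LPS. The groups did not overlap on either scale, and the direction was opposite. Before any scaling, 5 members (Nol10, Rrs1, Ltv1, Rrp1b and Nop58) had all LPS counts above all control counts, 41 had them all below, and 6 overlapped. Among all tested genes 13.6% had raw LPS counts all above and 68.6% all below the controls. In scaled CPM, 19 members lay fully above and 16 fully below the controls, against 33.9% and 36.6% of all tested genes, and 17 overlapped.

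There were 6 members that passed the test as higher under each scaling, filter, test and left-out library that was run, namely Nol10, Rrs1, Ltv1, Rrp1b, Nop58 and Ddx21. In the same way 12 members passed as lower in each of these, namely Nob1, Wdr12, Nop16, Nop2, Dkc1, Polr1b, Wdr3, Nop56, Tsr1, Utp15, Ddx27 and Pes1. The 6 and the 12 cannot be compared, since library size alone and upper quartile scaling moved all genes down. These scalings could remove rises but hardly falls. The same counts over all tested genes are not given here. Within the 3 batches, 41 of the 52 members had 1 direction in every same-numbered pair, and all 31 members that passed the test were among them. The share of all tested genes with 1 direction is not given here. A gene that passes the test tends to have 1 direction in its pairs, so this is a description and no separate support. The remaining 13 calls did not hold throughout, and they are marked as such where they are described.

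**Figure D2:**
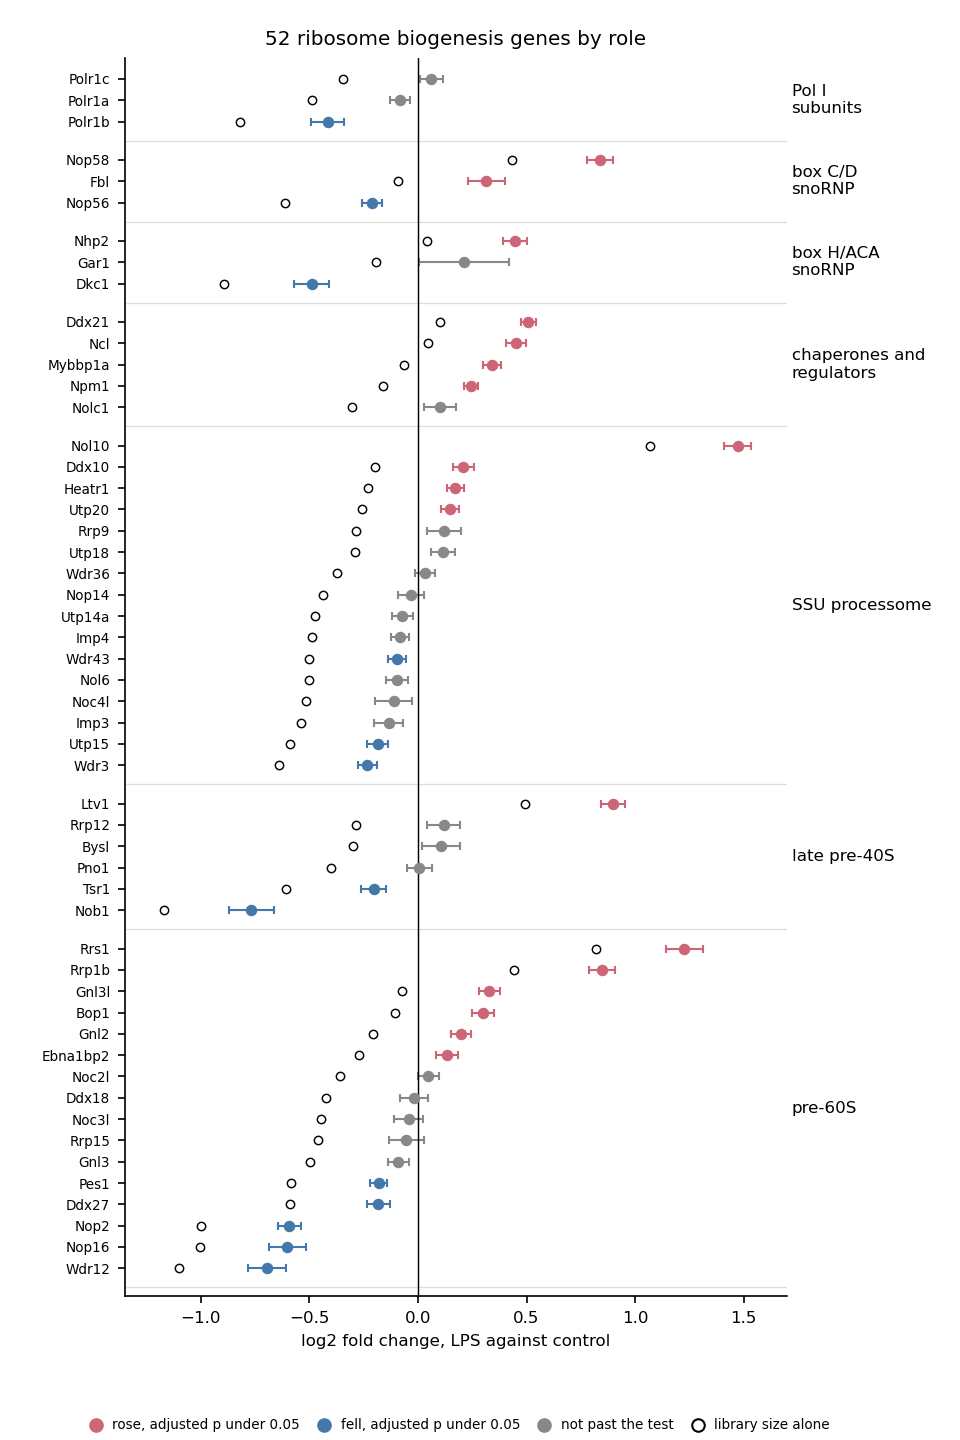
Points give each member's log2 fold change between 3 LPS and 3 control libraries with TMM scaling, with bars of 1 standard error, grouped by role and coloured by the test. Open circles give the same value with library size alone, where 20 members that lie right of 0 with TMM lie left of it, each shifted left by a similar amount.

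Pol I itself was represented by 3 subunits, of which 1 fell and 2 did not pass the test. The fall was 33.3% of the 3, near the 34.9% of all tested genes that fell. Polr1b, the second-largest subunit, had 635, 673 and 576 counts with PBS and 354, 329 and 336 with LPS, a level of 13.6 ± 1.22 against 10.2 ± 0.346 CPM (mean ± SD, n = 3). All LPS libraries were below all controls and the log2 fold change was -0.42 ± 0.077 (SE), with an adjusted p of 0.00012 in edgeR. Polr1a, the largest subunit, gave 1722, 1559 and 1594 counts under PBS against 1131, 1043 and 1144 under LPS, which gave a log2 fold change of -0.084 with an adjusted p of 0.11 in edgeR. Polr1c, a subunit shared with Pol III, was at 0.061 with an adjusted p of 0.32, a value that turned negative with library size alone or upper quartile scaling.

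The box C/D snoRNP carries out 2′-O-methylation of rRNA, and its 3 protein members went different ways. Nop58 was counted 905, 902 and 884 times with PBS and 1050, 1143 and 1279 times with LPS. Its scaled level went from 19.4 ± 0.515 to 34.6 ± 3.16 CPM (n = 3), a log2 fold change of 0.84 ± 0.061 with an adjusted p of 8.6e-10 in edgeR. Nop56, which pairs with Nop58 in the particle, had 1779, 1607 and 1594 counts with PBS and 1032, 1023 and 1050 with LPS, and it fell by 0.21 ± 0.046 on the log2 scale with an adjusted p of 0.00056. Neither pair of groups overlapped. Fbl, the methyltransferase, gave 552, 689 and 666 counts under PBS against 550, 594 and 568 under LPS, so that the raw counts overlapped, and its log2 fold change of 0.31 ± 0.085 (adjusted p 0.0034 in edgeR) did not pass with upper quartile scaling and was -0.091 with library size alone. Fbl shares a stretch of 690 bp at 99.6% identity with an annotated transcript of Tulp4, so its reads may be divided between both genes.

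The box H/ACA snoRNP converts uridine to pseudouridine, and its members were also divided. Dkc1, the pseudouridine synthase, was counted 502, 488 and 530 times with PBS and 286, 230 and 265 times with LPS, and its level fell from 10.9 ± 0.488 to 7.79 ± 0.738 CPM (n = 3) with a log2 fold change of -0.49 ± 0.083 and an adjusted p of 4.5e-05 in edgeR. Nhp2, a core protein of the particle, had 846, 782 and 776 counts with PBS and 775, 810 and 780 with LPS. The raw counts of Nhp2 overlapped while its scaled CPM did not, and the log2 fold change of 0.45 (adjusted p 1.1e-06) dropped to 0.043 without passing when library size alone was used. Gar1 was the lowest member, at 1.42 CPM in control and 1.64 in LPS libraries with 39 to 73 counts per library, and its log2 fold change of 0.21 had a standard error of 0.21.

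Among the 5 nucleolar chaperones and regulators 4 rose and none fell, against 32.9% and 34.9% of all tested genes. Ddx21 was the only one of the 5 whose rise held with library size alone. Ddx21, an RNA helicase of the nucleolus, gave 3610, 3372 and 3452 counts under PBS against 3530, 3528 and 3642 under LPS. The raw counts overlapped, but the share of the library rose, and the scaled level went from 75.1 ± 0.635 to 106.8 ± 1.47 CPM (n = 3) with a log2 fold change of 0.51 ± 0.033 and an adjusted p of 2.3e-10 in edgeR. Ncl (nucleolin), among the most abundant nucleolar proteins, was counted 2579, 2553 and 2887 times with PBS and 2631, 2524 and 2763 times with LPS. Its log2 fold change of 0.45 with TMM was 0.047 with library size alone, where the call was lost. Npm1 (nucleophosmin), a histone and ribosome chaperone, had 9051, 8385 and 8571 counts with PBS and 7316, 7315 and 7574 with LPS. Npm1 rose by 0.24 on the log2 scale with TMM scaling (187 ± 2.55 to 221.6 ± 3.18 CPM, n = 3, adjusted p 2.1e-06 in edgeR). With library size alone it was at -0.16 and passed as a fall (adjusted p 0.00013 in edgeR), and its raw counts were also lower. Mybbp1a, a repressor of Pol I transcription and partner of MYB, gave 2792, 2606 and 2659 counts under PBS against 2354, 2571 and 2428 under LPS, and its log2 fold change of 0.34 likewise became -0.065 with library size alone. Nolc1, a chaperone of snoRNPs, was at 0.10 with an adjusted p of 0.23 and changed sign with library size alone or upper quartile scaling.

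Npm1 was the most abundant member per kb of annotated exon, at 70.2 CPM per kb in control libraries. Noc2l at 25.3, Pes1 at 22.2, Imp3 at 16.8 and Nhp2 at 15.1 CPM per kb followed, and Gar1 at 0.830 was the lowest. Of the 52 members, 40 lay above the median control level of all tested genes, with a median of 22.3 CPM against 11.3.

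The small subunit processome, the particle that forms on the precursor rRNA as it is made, was represented by 16 members, of which 4 rose, 3 fell and 9 did not pass. Nol10 showed the highest log2 fold change of all members. It was counted 380, 385 and 410 times with PBS and 777, 775 and 801 times with LPS, which corresponded to 8.46 ± 0.456 and 23.5 ± 0.300 CPM (n = 3). The groups lay far apart on both scales, and the log2 fold change was 1.47 ± 0.063 with an adjusted p of 4.0e-13 in edgeR and 1.07 with library size alone. Nol10 spans chr12:17348458-17430095 in GRCm38 on the plus strand, and its nearest tested neighbours were Pdia6 at 63688 bp with a log2 fold change of 0.13 and Odc1 at 114699 bp with 5.63.

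The other rises in the processome were small and were lost or turned with library size alone. Ddx10 (0.21), Heatr1 (0.17) and Utp20 (0.15) rose with TMM scaling, while their log2 fold changes with library size alone were -0.20, -0.23 and -0.26. Each then passed as a fall (adjusted p 0.0011, 2.4e-05 and 1.9e-05 in edgeR). With upper quartile scaling their calls were lost. Wdr3, a beta-propeller subunit, had 2007, 1829 and 1897 counts with PBS and 1204, 1141 and 1173 with LPS and fell by 0.23 ± 0.042 on the log2 scale with an adjusted p of 9.6e-05 in edgeR. Utp15, a subunit of the part that joins first, gave 1535, 1315 and 1470 counts under PBS against 920, 893 and 925 under LPS, with a log2 fold change of -0.19 and an adjusted p of 0.0032 in edgeR. All LPS libraries lay below all controls for both genes. Wdr43 fell by 0.095 with an adjusted p of 0.046, and this call was lost with DESeq2's size factors, with DESeq2's own test and without control replicate 1 or 2 or LPS replicate 1 or 2, where the adjusted p was between 0.077 and 0.19. The other members that did not pass, Rrp9, Utp18, Utp14a, Imp4, Nol6, Noc4l and Imp3, lay between -0.14 and 0.12, and Rrp9 and Utp18 changed sign with library size alone or upper quartile scaling. Wdr36 and Nop14 were among the 4 members with the smallest changes. Wdr36 was counted 2308, 1945 and 2067 times with PBS and 1602, 1486 and 1570 times with LPS, a log2 fold change of 0.032 with overlapping scaled CPM, which was negative with library size alone or upper quartile scaling. Nop14 had 746, 705 and 719 counts with PBS and 503, 511 and 517 with LPS, a log2 fold change of -0.032 with an adjusted p of 0.64.

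The late factors of the small subunit precursor held both a strong rise and the deepest fall of the set. Ltv1, which leaves the precursor shortly before its last steps, gave 692, 632 and 701 counts under PBS against 880, 906 and 939 under LPS. Its level was 14.6 ± 0.603 against 27.2 ± 0.842 CPM (n = 3), the groups did not overlap, and the log2 fold change was 0.90 ± 0.055 with an adjusted p of 7.9e-11 in edgeR. Nob1, the nuclease that makes the final cut of the small subunit rRNA, was counted 349, 368 and 306 times with PBS and 153, 127 and 154 times with LPS. Its level fell from 7.37 ± 0.758 to 4.33 ± 0.376 CPM (n = 3), with a log2 fold change of -0.77 ± 0.10 and an adjusted p of 3.9e-06 in edgeR. Pno1, the partner of Nob1, showed the smallest change of all members, with 1029, 918 and 1040 counts under PBS, 755, 678 and 731 under LPS, and a log2 fold change of 0.0062 whose sign depended on scaling and filter. Tsr1, a GTPase-like factor, had 1080, 1021 and 996 counts with PBS and 615, 624 and 701 with LPS and fell by 0.20 on the log2 scale with an adjusted p of 0.0040 in edgeR. Tsr1 shares 1240 exonic bases with Srr on the opposite strand, and the strand setting of the counting is not given in the sources used here. Rrp12 (0.12) and Bysl (0.11) did not pass the test, and both changed sign with library size alone or upper quartile scaling.

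Among the 16 factors of the large subunit precursor 6 rose, 5 fell and 5 did not pass. These rises and falls were 37.5% and 31.2% of the 16, near the 32.9% and 34.9% of all tested genes. Rrs1, which brings the 5S ribonucleoprotein into the precursor, gave 411, 456 and 434 counts under PBS against 811, 745 and 641 under LPS. Its level was 9.38 ± 0.731 against 21.9 ± 2.77 CPM (n = 3), with the groups apart and a log2 fold change of 1.23 ± 0.086 at an adjusted p of 5.7e-10 in edgeR. Rrs1 has no intron, a feature it shares among the members only with Imp3, which did not pass (-0.14, adjusted p 0.089). Rrp1b, a nucleolar factor that binds protein phosphatase 1, was counted 553, 506 and 506 times with PBS and 699, 650 and 683 times with LPS, a log2 fold change of 0.85 ± 0.060 with an adjusted p of 6.0e-10 in edgeR. The groups of Rrp1b did not overlap in raw counts or in CPM.

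The remaining rises of this class were modest and turned with library size alone. Gnl3l, a nucleolar GTPase, had 1217, 1108 and 1214 counts with PBS and 1090, 992 and 1126 with LPS, with a log2 fold change of 0.33 that became -0.075 with library size alone. Its relative Gnl3 (nucleostemin) gave 1601, 1436 and 1483 counts under PBS against 1002, 1053 and 1005 under LPS, a log2 fold change of -0.091 with an adjusted p of 0.11. Bop1 (0.30), Gnl2 (0.20) and Ebna1bp2 (0.13) rose with TMM scaling and were at -0.10, -0.21 and -0.27 with library size alone. There Gnl2 and Ebna1bp2 passed as falls (adjusted p 0.00060 and 7.9e-05 in edgeR), and Bop1 did not pass (0.073). The call of Gnl2 was lost with upper quartile scaling. The call of Ebna1bp2 was also lost without the count filter and without control replicate 1 or 3 or LPS replicate 1, with adjusted p-values of 0.050 to 0.13 in edgeR. Ddx18, an RNA helicase, was counted 1143, 966 and 1026 times with PBS and 689, 795 and 749 times with LPS, with overlapping scaled CPM and a log2 fold change of -0.017 that was positive with DESeq2's size factors. Noc2l (0.048), Noc3l (-0.043) and Rrp15 (-0.054) did not pass either, and Noc2l was negative with library size alone or upper quartile scaling.

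The 3 deepest falls of this class went further than that of any processome member. Wdr12, a beta-propeller protein, had 802, 784 and 841 counts with PBS and 409, 291 and 383 with LPS, and its level fell from 17.5 ± 0.700 to 10.8 ± 1.69 CPM (n = 3) with a log2 fold change of -0.69 ± 0.086 and an adjusted p of 1.3e-06 in edgeR. Nop16, an assembly factor of the large subunit, gave 449, 428 and 425 counts under PBS against 188, 209 and 222 under LPS, a log2 fold change of -0.60 ± 0.084 with an adjusted p of 5.5e-06. Nop2, a methyltransferase that places 5-methylcytosine on the large subunit rRNA, was counted 1197, 1117 and 1094 times with PBS and 561, 533 and 536 times with LPS, with a log2 fold change of -0.59 ± 0.054 and an adjusted p of 2.2e-08. No LPS library reached the lowest control library in any of these genes. Pes1 (-0.18) and Ddx27 (-0.18) fell by less, and both kept their call in each setting that was run.

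**Figure D3:**
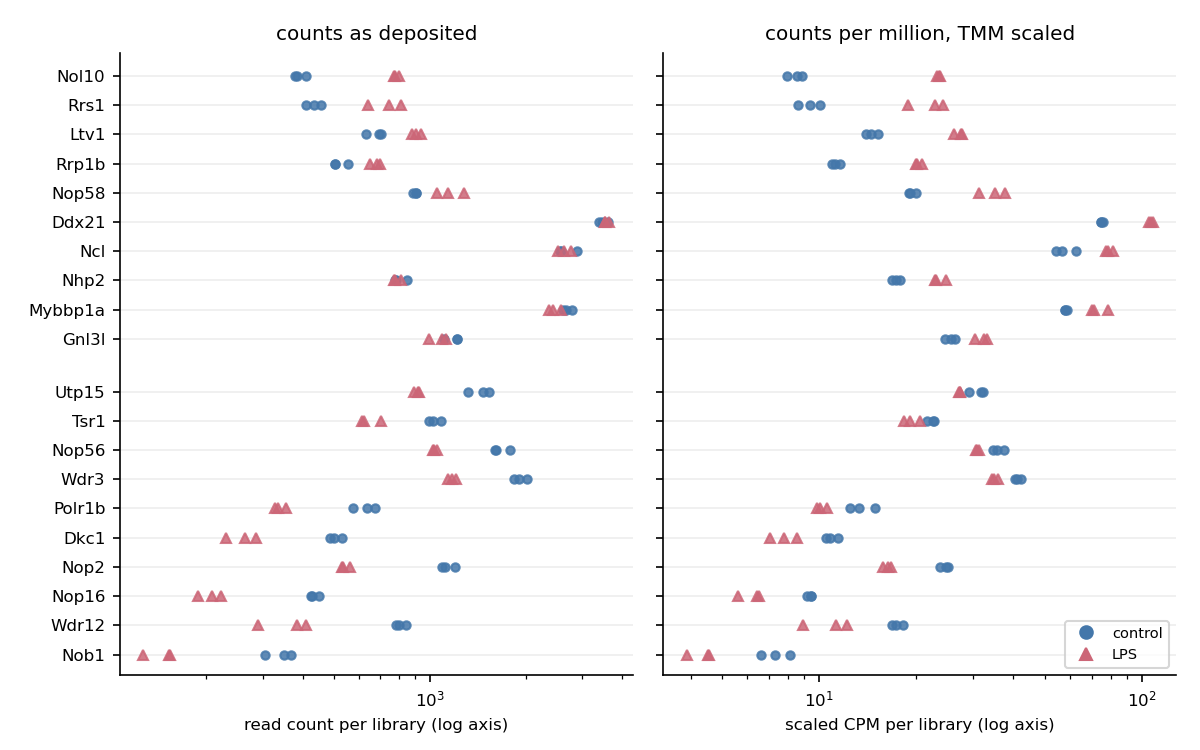
Each point is 1 library, with raw counts on the left and TMM-scaled CPM on the right, both on log axes, for the 10 members with the highest and the 10 with the lowest log2 fold change (control as blue circles, LPS as red triangles). For Nol10, Rrs1, Ltv1, Rrp1b and Nop58 the LPS libraries lie above on both axes, for Mybbp1a and Gnl3l they lie lower or overlap in raw counts and above in CPM, and for the lower 10 they lie below on both.

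Since a ratio of counts of both genes within the same library does not depend on scaling between libraries, ratios were formed for 13 pairs of members that share a particle or a family. The pairs were chosen with the fold changes known, so the ratios are a description and no test was made of them. The Nop58 to Nop56 ratio was 0.509, 0.561 and 0.555 in control and 1.02, 1.12 and 1.22 in LPS libraries, a 2.06-fold change with no overlap. The Nhp2 to Dkc1 ratio was 1.685, 1.602 and 1.464 in control and 2.710, 3.522 and 2.943 in LPS libraries, a 1.92-fold change with no overlap.

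Bop1, Pes1 and Wdr12 form the PeBoW complex, which is needed for maturation of the large subunit rRNA. The Bop1 to Wdr12 ratio was 1.80, 1.71 and 1.46 in control and 2.98, 4.01 and 3.09 in LPS libraries, a 2.01-fold change. The Bop1 to Pes1 ratio changed 1.40-fold and the Pes1 to Wdr12 ratio 1.44-fold, again with no overlap. The Ltv1 to Nob1 ratio changed most, 3.18-fold, from 2.00 ± 0.287 to 6.33 ± 0.719 (n = 3).

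Of the 13 ratios, 10 did not overlap between the groups, which the choice of a riser and a faller fixed in part. The ratios of Noc2l to Noc3l, of Nop14 to Noc4l and of Imp3 to Imp4 overlapped, with changes of 1.06-fold, 1.06-fold and 0.963-fold. Noc2l and Noc3l form a known complex, as do Nop14 and Noc4l, and Imp3 and Imp4 enter the processome through a shared partner.

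**Figure D4:**
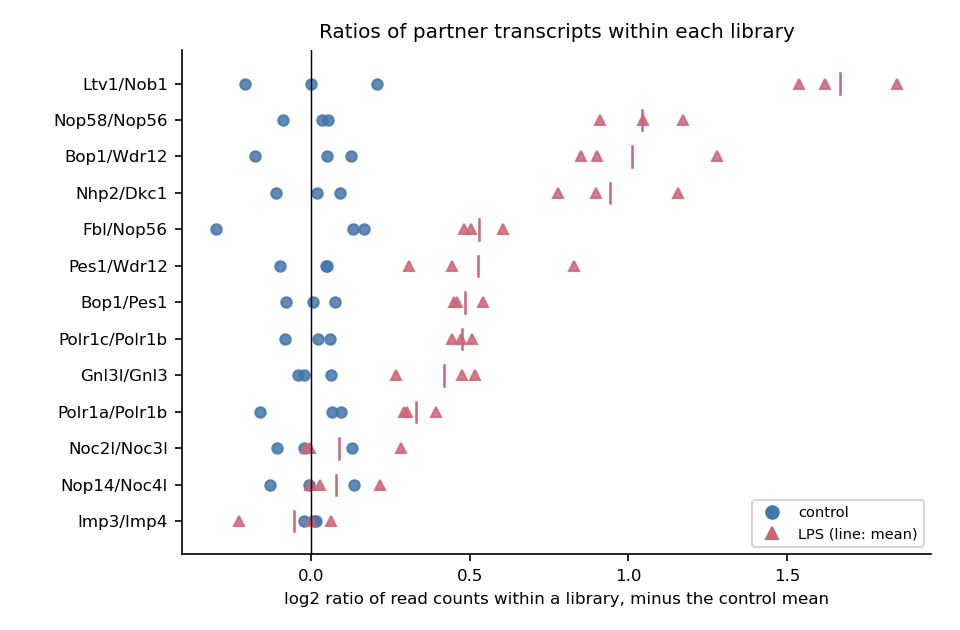
Log2 ratios of read counts of 2 members within each library, minus the mean of the controls, for 13 pairs (control as blue circles, LPS as red triangles, red line for the LPS mean). The 10 upper pairs have all LPS libraries right of all controls and the 3 lower pairs overlap.

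Other genes of the pathway, taken from lists that do not contain the members, showed more falls than rises under each scaling that was tried. The counts here are those with TMM, where 32.9% of all tested genes rose and 34.9% fell. Falls also outnumbered rises among all tested genes with library size alone (65.9% against 15.0%) and with upper quartile scaling (46.3% against 23.6%). Of 13 further genes of the Pol I machinery 2 rose and 6 fell (median log2 fold change -0.091), with Cd3eap at -1.24, Taf1c at -0.81 and Ttf1 at -0.73. Of 36 further small subunit factors 6 rose and 18 fell (median -0.13), with Rcl1 at 1.37 and Dcaf13 at 0.65 as rises and Diexf at -0.91 as a fall. Of 45 further large subunit factors 12 rose and 20 fell (median -0.14), with Sbds, the gene of Shwachman-Diamond syndrome, at 1.54 and Ddx31 at -0.98. Of 11 further snoRNP proteins and assembly factors 3 rose and 4 fell (27.3% and 36.4%, near the shares of all tested genes, median -0.12). Among them Tgs1, which makes the trimethylguanosine cap, was at -0.66.

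The RNA exosome, which trims the ends of rRNA precursors, had 2 of 13 genes that rose and 7 that fell (median -0.21), with Exosc4 at -1.11. The Pol III machinery, which makes 5S rRNA and tRNA, had 4 of 21 that rose and 15 that fell (median -0.35), with Gtf3c4 at -1.56, Brf2 at -1.33 and Polr3g at -1.07. Cytosolic ribosomal proteins moved together, with 72 of 78 tested genes that rose and none that fell (median 0.21). With library size alone 1 of these rose and 72 fell, and with upper quartile scaling 22 rose and 3 fell, so the direction of the ribosomal proteins depended on scaling. Their median lay 0.22 above that of all tested genes under each scaling, a distance that a change of scaling leaves in place by construction.

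Myc had 219, 191 and 219 counts with PBS and 1786, 1836 and 1816 with LPS, and the groups lay far apart with a log2 fold change of 3.58 ± 0.059 and an adjusted p of 2.2e-19 in edgeR. Mycl rose by 1.85, and Mycn stayed at or under 5 counts in each library and was not tested. Of the proliferation markers, Mki67 rose by 3.04 on the log2 scale, whereas Top2a (-0.13), Cdk1 (-0.26) and Ccnb1 (-0.40) fell, and the part of these changes in the values of the members was not tested.

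**Figure D5:**
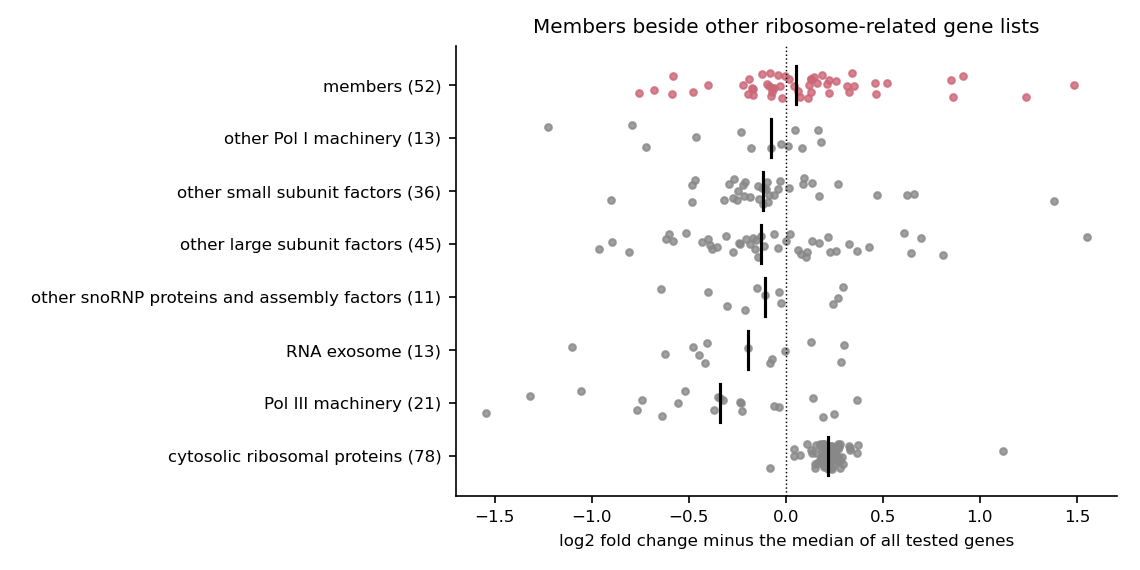
Each point is a gene, at its log2 fold change minus the median of all tested genes, with black bars for list medians and the number of tested genes in parentheses. The members (red) spread to both sides of a median of 0.053, and the ribosomal proteins cluster around 0.22.

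The 52 members lie on 19 chromosomes. Nop58 and Wdr12 both lie on chromosome 1, with 350740 bp and genes such as Bmpr2 and Fam117b between them, and had log2 fold changes of opposite sign (0.84 and -0.69). A divergent protein-coding start lay within 1000 bp of 15 members. Wdr12 and its divergent neighbour Carf both fell (-0.69 and -0.75), as did Wdr3 with Gdap2 (-0.23 each) and Utp15 with Ankra2 (-0.19 and -0.16). Imp4 did not pass the test (-0.084) while its neighbour Ccdc115 fell by 0.87, and Nop16 fell while its neighbour Higd2a was at 0.079 with an adjusted p of 0.20. Exonic bases were shared with another annotated gene by 25 members, mostly on the opposite strand. The remaining 27 held 10 rises and 6 falls, beside shares of 32.9% and 34.9% over all tested genes. Near-identical stretches in genes that do not overlap them were found for 6 members (Ddx18, Fbl, Nop56, Nop58, Npm1 and Wdr12). For Npm1, the pseudogenes Gm14681 and Gm9118 held 1857 and 1725 counts over the 6 libraries against 48212 for Npm1. Ddx18 matched the pseudogene Gm16433 over 1984 bp, with 152 counts there against 5368. Bysl shared 361 bp with Ccnd3, which overlaps it on the opposite strand. Reads of such stretches cannot be assigned with certainty.

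Gene structure did not order the changes. Across the 52 members, Spearman's rho of the log2 fold change was 0.14 with the gene span, -0.060 with exonic length and 0.0073 with the control level. These points share the same 6 libraries, and over all tested genes rho with the span was 0.13.

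Several members carry small RNA genes, which is a known feature of snoRNP protein genes. Inside 8 members lie 23 such genes, 21 of them snoRNAs in 7 hosts. Of the 23, 10 were at 0 in every library, and the others had between 1 and 154 counts summed over the 6 libraries. All 10 share exonic bases with their host on the same strand. How reads of such stretches were counted is not given, so a 0 need not mean that the snoRNA was absent. Gm26287, an intronic snoRNA of Nop58, gave 5, 4 and 4 counts under PBS against 12, 11 and 15 under LPS. It passed the filter on low counts only through the LPS libraries, so no test is given for it. The other snoRNAs of this host overlapped between the groups in raw counts or were at 0, with Snord11 at 2, 5 and 6 against 14, 6 and 10 counts. Snord53 and Gm22858 in Wdr43 did not pass the test. Counts this low in total RNA libraries can come from the intron of the host as well as from the snoRNA, and these cannot be told apart.

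The rRNA product was not followed here. Rows annotated as rRNA, 354 in all, summed to 5205, 9784 and 21937 counts with PBS and to 14963, 6438 and 29137 with LPS, so that the groups overlapped and libraries of 1 group differed by several fold.

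Promoter sequences of 300 bases, from 250 before to 50 after the transcription start, were available from RefSeq (GRCm38.p6) for 43 members. The members without an entry were Rrp12, Rrs1, Gnl2, Fbl, Nol6, Npm1, Bop1, Wdr36 and Gnl3l. The 43 sequences were searched on both strands for 8 short motifs. The E-box CACGTG, the best known binding sequence of MYC and of USF and other factors of the same class, was found in 10 of 43 (23.3%), against 7.15% of all 32851 promoters in the table and 9.77% of those of tested genes. It occurred in 3 of 12 members that rose, 4 of 13 that fell and 3 of 18 that did not pass. The windows are shown because members with the motif moved in both directions. Each line gives 30 bases on the strand of the gene, with the motif in capitals, from the largest rise to the largest fall.
Ltv1, chr10:13193092-13193121, minus: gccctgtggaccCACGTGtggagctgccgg
Mybbp1a, chr11:72441347-72441376, plus: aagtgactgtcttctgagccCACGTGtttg
Utp20, chr10:88826765-88826794, minus: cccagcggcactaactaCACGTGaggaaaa
Utp18, chr11:93885769-93885798, minus: gcgagcgccggtCACGTGgcttgcggcggc
Pno1, chr11:17211540-17211569, minus: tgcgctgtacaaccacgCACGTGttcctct
Imp4, chr1:34439696-34439725, plus: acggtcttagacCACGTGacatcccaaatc
Wdr43, chr17:71616220-71616249, plus: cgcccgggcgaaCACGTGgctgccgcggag
Pes1, chr11:3963965-3963994, plus: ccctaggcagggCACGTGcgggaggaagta
Tsr1, chr11:74898092-74898121, plus: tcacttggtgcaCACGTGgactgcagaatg
Nop2, chr6:125131811-125131840, plus: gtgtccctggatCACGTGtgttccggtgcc

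The E-box lay before the start in Utp18 (20 bases), Nop2 (60 bases) and Imp4 (121 bases), and within the first 50 transcribed bases in the other 7. The RefSeq starts of Wdr43, Heatr1 and Rrp9 lie 320, 348 and 1346 bp from the GENCODE gene starts, so their windows may miss the promoter in use. No E-box was found in the windows of Heatr1 and Rrp9, which are counted among the 43. The motif TCTCGCGA, known from promoters of housekeeping genes, was found in 4 of 43 members (9.30%) against 2.08% of promoters of tested genes, and its copies did not overlap an E-box. They are shown in the same format because this motif, too, was found in members with different directions, with the reverse strand reading TCGCGAGA.
Nop58, chr1:59684843-59684872, plus: aaaaaaaaaagTCTCGCGAtattttaaggc
Polr1c, chr17:46248033-46248062, minus: gcggggcaagaTCTCGCGAcattcaagatt
Nop14, chr5:34660165-34660194, minus: acttgtgtactTCTCGCGAaatacgggaag
Nop14, chr5:34660134-34660163, minus: tgacgcactcaTCGCGAGAcgaagctgggc
Tsr1, chr11:74898002-74898031, plus: ggcaaaaaaccTCGCGAGAggtcgcggaag

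The GC box GGGCGG was present in 34 of 43 members (79.1%) and in 60.5% of promoters of tested genes, CCAAT in 18 (41.9% against 37.7%), TATAAA in 2 (4.65% against 7.37%), GCATGCGC in 2 (4.65% against 5.09%) and AAGATGGC in 1 (2.33% against 4.44%). The NF-kappaB-like letters GGANTTTCC were found in none of the 43 and in 1.38% of promoters of tested genes. A match is a description of letters in these windows, and no binding was measured.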

How the data were processed

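Total RNA libraries from 3 control (PBS) and 3 LPS-treated BMDM samples were sequenced as paired-end reads, and the authors deposited raw counts per gene, not normalized. Per the labels and the study's methods, reads were aligned to GRCm38 with HISAT2 2.1.0, handled with SAMtools 1.17, checked with FastQC 0.11.9 and counted with featureCounts 2.0.0. The annotation release, the strand setting and the treatment of reads with several matches are not given in the sources used here. Of 55335 identifiers, 55154 matched GENCODE M21 without version. Members of the set, the role groups and the other gene lists were chosen with earlier results of these data known.

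From the counts, R 4.3.3 and edgeR 4.0.16 (filterByExpr, TMM, quasi-likelihood F test, Benjamini-Hochberg over 15687 genes) gave fold changes, with standard errors derived from the F statistic. The biological coefficient of variation was 4.26%. A floor of 3 counts corresponded to 0.0630 to 0.0919 CPM, which covers counting error only. Per-library counts were given for 10 fixed members (Ncl, Npm1, Fbl, Nop56, Nop58, Dkc1, Polr1a, Polr1b, Gnl3 and Gnl3l), for the 10 highest, the 10 lowest and the 4 smallest log2 fold changes, and up to 4 genes were named from each other list. Genes named for genomic position, small RNAs and the pairs of the ratios were chosen after their values were seen. Alternatives were DESeq2 1.42.0 (size factors or test), voom of limma 3.58.1, other scalings and filters, a replicate block and leaving out each library. Scripts were tested on simulated data. Near-identical stretches (at least 101 bp at 98% identity) were sought with BLAST 2.17.0. Rank correlations used scipy 1.17.1.

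The labels give each group replicates 1 to 3 and the same numbers as batches. Same-numbered libraries were treated as pairs only for the replicate block and for the directions within batches. The main fit and its p-values took no account of pairs. Deviations of same-numbered libraries from the group means correlated at -0.014, 0.082 and 0.039. Those of libraries with different numbers correlated at -0.082 to 0.045.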

Additional observations from a re-analysis of the deposited data

How the results depend on the processing

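With library size alone 6 members rose (15.0% of all tested genes) and 39 fell (65.9%), and the median was -0.36. More than 2-fold, 1 member rose and 3 fell, and the share of all tested genes past 2-fold with this scaling is not given here. The 20 log2 fold changes that turned negative were Bop1 -0.10, Bysl -0.30, Ddx10 -0.20, Ebna1bp2 -0.27, Fbl -0.091, Gar1 -0.19, Gnl2 -0.21, Gnl3l -0.075, Heatr1 -0.23, Mybbp1a -0.065, Noc2l -0.36, Nolc1 -0.30, Npm1 -0.16, Pno1 -0.40, Polr1c -0.34, Rrp12 -0.29, Rrp9 -0.29, Utp18 -0.29, Utp20 -0.26 and Wdr36 -0.37. With upper quartile scaling 26 members fell (46.3% of all tested genes), the median was -0.10, and those that turned were Bysl -0.037, Ebna1bp2 -0.010, Noc2l -0.095, Nolc1 -0.042, Pno1 -0.14, Polr1c -0.082, Rrp12 -0.025, Rrp9 -0.024, Utp18 -0.028 and Wdr36 -0.11. Both shifts follow from the construction of the scaling, since the median of all tested genes moved with them.

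Ddx18 was at 0.0019 with DESeq2's size factors and 0.0023 with its test. Pno1 was at -0.018 without the count filter, -0.011 with at least 10 counts in every library and -9.8e-05 without the 10 highest genes. Leaving out 1 library moved Ddx18 between -0.083 and 0.038, Pno1 between -0.032 and 0.041, Wdr36 between -0.0051 and 0.079 and Noc2l between -0.015 and 0.082, and the median of the members minus that of all tested genes between 0.038 (without control replicate 3) and 0.080 (without LPS replicate 3). Rises stayed at 17 to 19 and falls at 12 to 15 in these fits. Without the 25 members that share exonic bases, 10 rose and 6 fell of 27, against 32.9% and 34.9% of all tested genes. The median was then 0.10 and its distance from all tested genes 0.11, the counts being lower by construction. The replicate block, fitted for the pairing by batch, gave 18 rises and 13 falls and changed no call. Depth limited Gar1 most, whose counts of 39 to 73 gave a standard error of 0.21.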
